A study of Arabidopsis thaliana with 36 samples.

Results

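The 9 genes at the core of salicylate production and of the EDS1-PAD4 immune module were followed across all 36 RNA-seq libraries of the series. They are ICS1 (AT1G74710), EDS5 (AT4G39030), PBS3 (AT5G13320), EDS1 (AT3G48090), PAD4 (AT3G52430), SAG101 (AT5G14930), NPR1 (AT1G64280), CBP60G (AT5G26920) and SARD1 (AT1G73805). They were taken by locus code from the deposited tables, which hold 34218 features, and all 9 were found and passed the filter on low counts in roots and in shoots. The series compares the transcriptomes of Arabidopsis thaliana mutants of NLP2 and NLP7, NIN-like transcription factors that act in the nitrate response, with those of wild type. Roots and rosettes, called shoots here as in the labels, came from plants 42 days old, grown in sand with 5 mM nitrate and 8 h of light. Each tissue had 3 biological replicates of 6 genotypes, namely nlp2-2 (an NLP2 allele), nlp2-3 (a further NLP2 allele), nlp7-1 (an NLP7 allele), the double mutant nlp2-3 nlp7-1, and the wild types Col-4 and Col-0.

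Here nlp2-2 was set against Col-4, and nlp2-3, nlp7-1 and the double mutant against Col-0. The labels do not state from which wild type each mutant was derived, where the insertions lie, or how many plants made up a replicate, and they name no pathogen or elicitor. One label gives Col-0 as the ecotype of every sample, and Col-4 is named in the sample titles. Replicates are biological per the labels, so p-values measure the spread between them. Comparisons that use Col-0 share its 3 libraries per tissue, so their results are not independent of each other. The comparison of nlp2-2 with Col-4 shares no library with that of nlp2-3 with Col-0. Whole organs were sequenced, so that fewer cells of a type and less RNA per cell cannot be told apart in any value below.

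Salicylate is the plant hormone of defence against biotrophic pathogens. In Arabidopsis most of it is made from chorismate: ICS1 converts chorismate to isochorismate in the plastid, EDS5 carries isochorismate to the cytosol, and PBS3 joins it to glutamate to give a conjugate that breaks down to salicylate. EDS1 is a lipase-like protein that forms separate complexes with PAD4 and with SAG101; these act downstream of intracellular immune receptors, and the EDS1-PAD4 complex promotes ICS1 expression. NPR1 binds salicylate and acts as a coactivator of defence genes. CBP60G and SARD1 are related transcription factors that bind the ICS1 promoter and activate it.

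The choice of genes for promoters depended in nlp2-2 on single libraries for all but PBS3 and PAD4, as given below. Shown are the promoters of the 6 genes that were lower in shoots of both NLP2 alleles. Each is the 250 bases before the gene start in the RefSeq annotation of TAIR10.1, written 5′ to 3′ on the gene's strand, and none of these windows overlaps another annotated gene. Capitals mark every match, on either strand, to the W box (TTGACC or TTGACT), the TGA factor element (TGACG) or the element bound by SARD1 and CBP60G (GAAATTT).
ICS1, chr1:28070045-28070294, forward strand: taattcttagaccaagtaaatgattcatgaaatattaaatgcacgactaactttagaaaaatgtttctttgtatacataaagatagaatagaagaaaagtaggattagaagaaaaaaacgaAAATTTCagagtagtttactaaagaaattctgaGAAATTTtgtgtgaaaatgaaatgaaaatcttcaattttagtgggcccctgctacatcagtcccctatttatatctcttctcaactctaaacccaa
EDS5, chr4:18185187-18185436, forward strand: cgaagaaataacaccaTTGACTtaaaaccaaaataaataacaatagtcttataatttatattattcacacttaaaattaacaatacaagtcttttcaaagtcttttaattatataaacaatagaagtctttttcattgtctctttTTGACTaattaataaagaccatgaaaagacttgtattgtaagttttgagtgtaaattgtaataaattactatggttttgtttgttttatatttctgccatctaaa
PBS3, chr5:4267206-4267455, forward strand: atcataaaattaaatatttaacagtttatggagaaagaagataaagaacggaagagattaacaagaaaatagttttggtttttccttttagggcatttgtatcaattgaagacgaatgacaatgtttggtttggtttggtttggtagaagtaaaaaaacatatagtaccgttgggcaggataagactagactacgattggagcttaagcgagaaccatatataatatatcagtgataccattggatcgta
EDS1, chr3:17758148-17758397, reverse strand: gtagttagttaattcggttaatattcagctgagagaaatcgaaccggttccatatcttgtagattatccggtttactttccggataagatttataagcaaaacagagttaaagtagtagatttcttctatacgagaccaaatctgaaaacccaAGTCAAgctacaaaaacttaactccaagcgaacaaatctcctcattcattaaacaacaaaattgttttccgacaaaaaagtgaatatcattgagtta
PAD4, chr3:19430845-19431094, forward strand: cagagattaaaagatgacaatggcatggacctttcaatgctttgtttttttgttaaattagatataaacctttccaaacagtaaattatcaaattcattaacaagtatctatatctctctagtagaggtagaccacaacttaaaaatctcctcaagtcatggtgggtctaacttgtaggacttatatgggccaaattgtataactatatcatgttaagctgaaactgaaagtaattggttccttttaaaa
SARD1, chr1:27749249-27749498, reverse strand: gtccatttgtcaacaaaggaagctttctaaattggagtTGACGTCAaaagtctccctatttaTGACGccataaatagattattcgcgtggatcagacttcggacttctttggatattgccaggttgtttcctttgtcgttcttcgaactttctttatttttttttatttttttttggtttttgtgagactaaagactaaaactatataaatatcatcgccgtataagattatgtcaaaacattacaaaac

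ICS1 held GAAATTT at 2 places, from -129 to -123 on the opposite strand and from -96 to -90 on its own strand, counted back from the gene start. Among the windows of all 9 genes that motif occurred in 1, and it occurred in 12.5% of the 27437 promoters of this length. EDS5 carried TTGACT from -234 to -229 and from -105 to -100, and EDS1 carried it on the opposite strand from -97 to -92. W boxes were thus in 2 of the 9 windows, against 28.4% of all promoters. The SARD1 window alone held TGACG, with 3 matches, of which those from -212 to -208 and, on the opposite strand, from -209 to -205 overlap, and the last lay from -188 to -184; 18.6% of all promoters held that motif. The nitrate-responsive element, searched on both strands as TGAC, any base, CTT, any 10 bases and AAG, and found in 0.0364% of all promoters, matched 0 of the 9 windows. The windows of PBS3 and PAD4, like those of SAG101, NPR1 and CBP60G, had no match to any of the 4 motifs. A match is a run of letters and not a shown binding site.

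Total counts ran from 1.84e+07 to 2.85e+07 in root libraries and from 1.82e+07 to 3.17e+07 in shoot libraries. NLP2 was lower in its mutants than in wild type, at 28.8 ± 1.3 CPM in nlp2-2 shoots against 41.5 ± 2.8 in Col-4, and at 16.1 ± 0.69 in nlp2-3 and 9.06 ± 0.55 in double mutant shoots against 53.7 ± 1.2 in Col-0 (SD, n = 3). CPM are counts scaled to a library total of 1e+06 after TMM scaling of the libraries within a tissue. In roots NLP2 was at 18.1 ± 4.3 CPM in nlp2-2 against 55.4 ± 1.5 in Col-4, and at 36.8 ± 3.1 in nlp2-3, 93.6 ± 6.7 in nlp7-1 and 49.4 ± 3.7 in the double mutant against 65.8 ± 0.78 in Col-0. The drop of NLP2 thus differed in size between organs, and its part in the differences between organs was not tested. NLP7 stood at 21.2 ± 2.5 CPM in nlp7-1 shoots and 23.6 ± 2.1 in the double mutant, against 48.6 ± 0.42 in Col-0, and in roots at 35.1 ± 2.7 and 41.3 ± 0.25 against 103 ± 10 in Col-0. The 9 leaf markers summed to 58034 to 74103 CPM in shoot libraries and to 8.25 to 30.0 CPM in root libraries, and the 6 root markers to at most 1.00 CPM in shoots and to 160 to 338 CPM in roots. Among the Col-0 shoot libraries replicate 3 was the highest of the 3 for 9 of 9 genes of the set. Col-4 shoot replicate 3 was likewise highest for 7 of 9. Among root libraries, nlp7-1 replicate 2 was highest for 8 of 9 and double mutant replicate 2 for 7 of 9. Member calls that ended without Col-0 shoot replicate 3 are given below. Medians, correlations and interaction estimates are given with all libraries only.

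Levels per transcript length were close together in Col-0 shoots and further apart in Col-0 roots. FPKM values, counts scaled to gene length and library total, are used here because genes of different length are compared. In Col-0 shoots EDS1 was at 18.6 ± 4.5, ICS1 at 17.4 ± 3.5, PAD4 at 16.6 ± 3.6, NPR1 at 12.9 ± 2.0, SAG101 at 10.5 ± 0.70, CBP60G at 9.87 ± 2.9, PBS3 at 9.68 ± 1.9, EDS5 at 8.87 ± 2.5 and SARD1 at 8.30 ± 2.1 FPKM (SD, n = 3). EDS1, ICS1 and PAD4 differed by less than their SD, and so did CBP60G, PBS3, EDS5 and SARD1. In Col-0 roots PAD4 was at 30.4 ± 1.9, EDS1 at 24.5 ± 0.72, SAG101 at 20.9 ± 1.4, NPR1 at 20.4 ± 1.1, EDS5 at 19.9 ± 3.4, CBP60G at 9.77 ± 2.7, ICS1 at 8.36 ± 2.1, SARD1 at 8.25 ± 1.1 and PBS3 at 1.53 ± 0.88 FPKM. There SAG101, NPR1 and EDS5 differed by less than their SD, and so did ICS1 and SARD1. Over all 18 shoot libraries SARD1 had the widest relative range of the 9, from 1.81 to 10.7 FPKM, and SAG101 the narrowest, from 6.48 to 11.2 FPKM.

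ICS1 and PBS3 were shoot-predominant in Col-0. In the fit of all libraries, ICS1 was higher in Col-0 shoots than in Col-0 roots by 1.76 ± 0.15 on the log2 scale (± SE; edgeR adjusted p = 1.04e-12) and PBS3 by 3.35 ± 0.29 (edgeR adjusted p = 8.74e-12), while EDS5 was lower by -0.47 ± 0.16 (adjusted p = 0.00773) and SAG101 by -0.27 ± 0.09 (adjusted p = 0.00626). EDS1 (0.31), CBP60G (0.72) and SARD1 (0.71) were also called, but on the FPKM scale, where the median of all genes was -0.63 in place of -0.08, limma gave -0.41, 0.01 and -0.01. NPR1 was at 0.06 by edgeR and -0.62 by limma on FPKM, and PAD4 at -0.17 and -0.85. Of the 9, 5 were called higher in shoots and 2 lower, where 36.4% and 42.0% of all genes tested were (78.4% in either direction), so that the total of 7 is near the background. By limma on FPKM the split turned round, with 2 called higher (ICS1 and PBS3) and 5 lower (EDS5, EDS1, PAD4, SAG101 and NPR1), where 21.6% and 67.0% of all genes were (88.6% in either direction). Without Col-0 shoot replicate 3 the calls of EDS1 (adjusted p = 0.119), CBP60G (0.0549) and SARD1 (0.18) ended by edgeR, and EDS5 lost its call without Col-0 root replicate 1 (0.0588) or Col-0 shoot replicate 2 (0.0569).

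In shoots the genes of salicylate synthesis and the EDS1-PAD4 module were lower in the mutants, most widely in nlp2-3, and none was called higher than in wild type. A gene is called when its adjusted p from edgeR's quasi-likelihood F test is under 0.05, with the Benjamini-Hochberg adjustment taken over all 19137 genes tested in shoots or 20486 in roots, and fold changes are log2 values of mutant over wild type ± SE with n = 3 libraries per group. In nlp2-2 shoots 6 of the 9 were called, all lower, where 2.33% of all genes were called lower (3.06% in either direction). In nlp2-3 shoots 9 of 9 were lower, against 4.47% of all genes (5.8% in either direction). In nlp7-1 shoots the count was 4, all lower, against 4.93% (9.77% in either direction), and in double mutant shoots it was 8, against 15.6% (31.1% in either direction). The median log2 fold change of the 9 was -0.48, -0.89, -0.37 and -0.73 in nlp2-2, nlp2-3, nlp7-1 and double mutant shoots, and that of all genes lay between -0.01 and 0.02. All 3 mutant libraries were below all 3 wild-type libraries for 7, 9, 6 and 8 of the genes in the same mutants, against 8.57%, 11.3%, 14.0% and 22.6% of all genes.

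**Figure D1:**
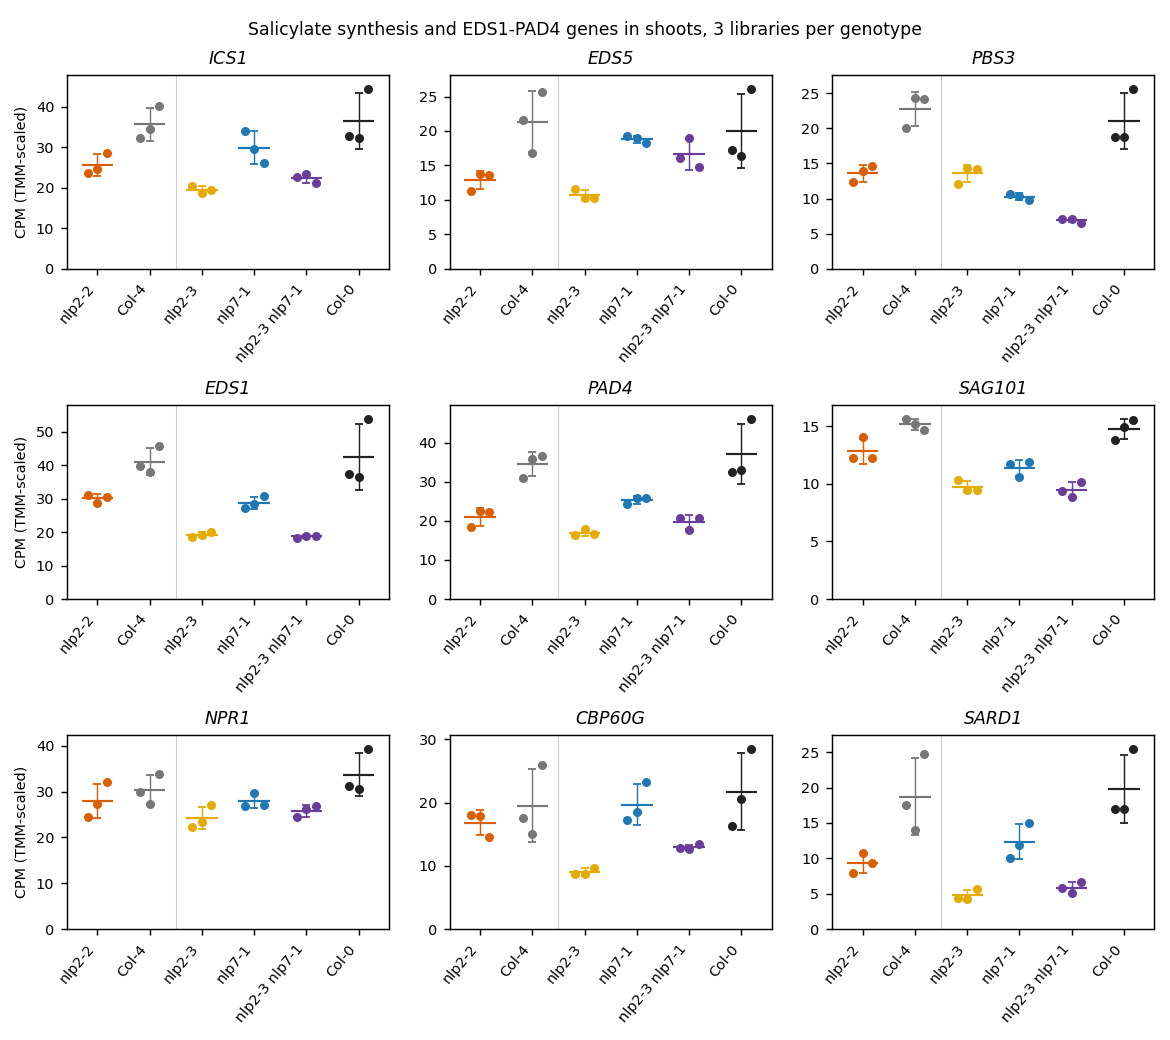
CPM of the 9 genes in shoots, with 1 point per library, horizontal lines for the mean and bars for the SD of 3 libraries; each panel has its own axis from 0. In nlp2-3 shoots SARD1 lies between 4.31 and 5.67 CPM while its Col-0 libraries lie between 17.0 and 25.4, and Col-0 replicate 3 (rightmost point) is the top Col-0 value in every panel.

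ICS1, the isochorismate synthase, had 23.6, 24.7 and 28.7 CPM in nlp2-2 shoots, against 32.3, 34.6 and 40.2 CPM in Col-4 shoots. In nlp2-3 it had 20.4, 18.8 and 19.5, in nlp7-1 34.1, 29.6 and 26.1 and in the double mutant 22.6, 23.3 and 21.1 CPM, against 32.8, 32.2 and 44.4 CPM in Col-0 shoots. Every library of nlp2-2, nlp2-3 and the double mutant lay below those of its wild type, whereas nlp7-1 overlapped Col-0. ICS1 fell by -0.48 ± 0.12 in nlp2-2 (edgeR adjusted p = 0.0315), by -0.89 ± 0.12 in nlp2-3 (4.39e-05) and by -0.70 ± 0.12 in the double mutant (0.000145). In nlp7-1 it stood at -0.27 ± 0.12 (edgeR adjusted p = 0.159).

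EDS5, the isochorismate exporter of the plastid envelope, had 11.3, 13.7 and 13.6 CPM in nlp2-2 shoots, against 21.6, 16.8 and 25.7 in Col-4. It had 11.6, 10.3 and 10.3 CPM in nlp2-3, 19.2, 19.0 and 18.2 in nlp7-1 and 16.1, 19.0 and 14.7 in the double mutant, against 17.3, 16.4 and 26.1 in Col-0. Both NLP2 single mutants lay wholly below their wild type, and both genotypes with nlp7-1 overlapped Col-0. EDS5 fell by -0.74 ± 0.17 in nlp2-2 (edgeR adjusted p = 0.0215) and by -0.88 ± 0.17 in nlp2-3 (0.0031). It was the member without a call in the double mutant (-0.26 ± 0.16, edgeR adjusted p = 0.268) and was at -0.07 ± 0.16 in nlp7-1 (0.846). EDS5 overlaps AT4G39040 on the other strand, and the strand setting of the counting is not given in the sources used here; AT4G39040 was between 0.06 and 0.18 in the 4 shoot comparisons and not called.

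PBS3, which conjugates isochorismate to glutamate, had 12.3, 13.9 and 14.6 CPM in nlp2-2 shoots, against 20.0, 24.3 and 24.1 in Col-4. Its values were 12.1, 14.4 and 14.2 CPM in nlp2-3, 10.7, 10.3 and 9.74 in nlp7-1 and 7.16, 7.14 and 6.59 in the double mutant, against 18.7, 18.8 and 25.6 in Col-0. No mutant library overlapped its wild type. PBS3 fell by -0.74 ± 0.12 in nlp2-2 (edgeR adjusted p = 0.000201), by -0.62 ± 0.11 in nlp2-3 (0.000503), by -1.03 ± 0.12 in nlp7-1 (1.72e-06) and by -1.59 ± 0.12 in the double mutant (4.09e-10). The double mutant was below both of its single mutants, by -0.96 ± 0.12 relative to nlp2-3 (edgeR adjusted p = 2.23e-06) and by -0.56 ± 0.13 relative to nlp7-1 (0.00506). The interaction of both mutations, the deviation from the sum of the single effects on the log2 scale, was 0.07 ± 0.17 (edgeR adjusted p = 0.897).

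EDS1, the shared partner of both immune complexes, had 31.1, 28.6 and 30.6 CPM in nlp2-2 shoots, against 39.6, 37.9 and 45.6 in Col-4. In nlp2-3 it had 18.4, 19.1 and 19.9, in nlp7-1 27.1, 28.3 and 30.7 and in the double mutant 18.2, 18.9 and 18.9 CPM, against 37.3, 36.3 and 53.7 in Col-0. Each mutant lay wholly below its wild type, with nlp2-3 and the double mutant close together. It fell by -0.45 ± 0.11 in nlp2-2 (edgeR adjusted p = 0.0239), -1.14 ± 0.11 in nlp2-3 (4.48e-07), -0.56 ± 0.11 in nlp7-1 (0.00188) and -1.18 ± 0.11 in the double mutant (7.2e-08). The double mutant differed from nlp7-1 by -0.62 ± 0.11 (edgeR adjusted p = 0.00114) and from nlp2-3 by -0.03 ± 0.12 (0.861).

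PAD4, whose complex with EDS1 promotes salicylate accumulation, had 18.4, 22.5 and 22.3 CPM in nlp2-2 shoots, against 31.1, 36 and 36.7 in Col-4. It had 16.5, 17.9 and 16.7 CPM in nlp2-3, 24.3, 25.9 and 26.0 in nlp7-1 and 20.8, 17.7 and 20.8 in the double mutant, against 32.5, 33.0 and 46.1 in Col-0. Again no mutant library reached its wild type. PAD4 fell by -0.72 ± 0.11 in nlp2-2 (edgeR adjusted p = 0.00049), -1.12 ± 0.11 in nlp2-3 (5.72e-07), -0.54 ± 0.11 in nlp7-1 (0.00251) and -0.91 ± 0.11 in the double mutant (2.1e-06). The double mutant differed from nlp2-3 by 0.21 ± 0.12 (edgeR adjusted p = 0.195). The interaction for PAD4, 0.76 ± 0.16, was called (edgeR adjusted p = 0.00807).

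SAG101, whose complex with EDS1 acts in cell death with helper receptors, had 12.2, 14.1 and 12.2 CPM in nlp2-2 shoots, against 15.6, 15.2 and 14.7 in Col-4. Values of 10.3, 9.47 and 9.46 CPM in nlp2-3, 11.7, 10.6 and 11.9 in nlp7-1 and 9.38, 8.86 and 10.2 in the double mutant stood against 13.8, 14.9 and 15.5 in Col-0. All 4 mutants lay below their wild type, by small margins. SAG101 fell by -0.59 ± 0.10 in nlp2-3 (edgeR adjusted p = 0.000147), -0.37 ± 0.10 in nlp7-1 (0.0131) and -0.64 ± 0.10 in the double mutant (1.62e-05), and it was at -0.25 ± 0.10 in nlp2-2 (0.223).

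NPR1, the salicylate receptor and coactivator, had small differences in shoots. It had 24.5, 27.3 and 32.0 CPM in nlp2-2, against 29.8, 27.3 and 33.9 in Col-4, and the groups overlapped. In nlp2-3 it had 22.3, 23.4 and 27, in nlp7-1 26.9, 29.6 and 27.1 and in the double mutant 24.4, 26.1 and 26.8 CPM, against 31.3, 30.6 and 39.2 in Col-0, with no overlap. It fell by -0.47 ± 0.10 in nlp2-3 (edgeR adjusted p = 0.00494) and by -0.38 ± 0.10 in the double mutant (0.00679). It stood at -0.12 ± 0.11 in nlp2-2 (edgeR adjusted p = 0.696) and at -0.27 ± 0.10 in nlp7-1 (0.109). With the replicate number as a block edgeR called NPR1 in nlp7-1 (-0.26, adjusted p = 0.0235).

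SARD1 and CBP60G are the related activators of ICS1. SARD1 had 7.91, 10.8 and 9.41 CPM in nlp2-2 shoots, against 17.5, 14.0 and 24.7 in Col-4. It had 4.43, 4.31 and 5.67 CPM in nlp2-3, 10.1, 11.9 and 15 in nlp7-1 and 5.88, 5.07 and 6.67 in the double mutant, against 17.0, 17.0 and 25.4 in Col-0. No mutant overlapped its wild type, and the fall in nlp2-3, 4.12-fold, was the largest of the 9 genes in any shoot comparison with wild type. SARD1 fell by -1.0 ± 0.22 in nlp2-2 (edgeR adjusted p = 0.0208), -2.04 ± 0.24 in nlp2-3 (3.4e-05) and -1.74 ± 0.23 in the double mutant (3.28e-05). In nlp7-1 it was at -0.68 ± 0.21 (edgeR adjusted p = 0.0563). DESeq2 (0.00699), limma on FPKM (0.0496) and edgeR with the replicate number as a block (0.000226) called it there.

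CBP60G had 18.1, 17.9 and 14.5 CPM in nlp2-2 shoots, against 17.5, 15 and 26.0 in Col-4, with overlap. It had 8.67, 8.75 and 9.67 CPM in nlp2-3, 17.2, 18.5 and 23.3 in nlp7-1 and 12.9, 12.6 and 13.4 in the double mutant, against 16.3, 20.5 and 28.4 in Col-0. Libraries of nlp2-3 and of the double mutant were all below Col-0, and nlp7-1 overlapped it. CBP60G fell by -1.26 ± 0.22 in nlp2-3 (edgeR adjusted p = 0.00224) and -0.73 ± 0.21 in the double mutant (0.017), and stood at -0.22 ± 0.21 in nlp2-2 (0.749) and -0.14 ± 0.21 in nlp7-1 (0.753).

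Of the 6 genes lower in nlp2-2 shoots, all 6 were lower in nlp2-3 shoots too, which is 100% of the nlp2-2 list and 66.7% of the nlp2-3 list. With 9 of 9 called in nlp2-3, any member called lower in nlp2-2 had to be shared, so this overlap adds nothing to the counts. SAG101, NPR1 and CBP60G were called in nlp2-3 and not in nlp2-2, a difference between alleles that was not tested. The nlp2-2 count depended on single libraries: it was 4, 5 and 2 without Col-4 replicate 1, 2 and 3, and 2, 3 and 3 without nlp2-2 replicate 1, 2 and 3, with PBS3 and PAD4 called in each of the 13 alternative settings tried. Without Col-0 shoot replicate 3 the counts were 8 in nlp2-3, 3 in nlp7-1 and 6 in the double mutant. The calls that ended then were those of NPR1 in nlp2-3 (edgeR adjusted p = 0.0515), SAG101 in nlp7-1 (0.0658), and NPR1 (0.0604) and CBP60G (0.0667) in the double mutant. SAG101 in nlp7-1 also lost its call without nlp7-1 replicate 2 (0.0733), EDS1 in nlp7-1 with only the groups compared (0.0836), and CBP60G in the double mutant without double mutant replicate 1 (0.0501) or 2 (0.054).

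The wild types were compared in the same way. Between Col-4 and Col-0 shoots edgeR called 0 of the 9 genes (0.794% of all genes), 0 had an unadjusted p under 0.05, and DESeq2 and limma called 0 as well. Their fold changes in shoots, Col-4 over Col-0, ran from -0.14 to 0.12. In roots edgeR, DESeq2 and limma called 0 of 9 (0.0391% of all genes by edgeR), and 1 had an unadjusted p under 0.05. With Col-0 in place of Col-4 as the wild type, 6 members were called in nlp2-2 shoots.

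The double mutant in shoots was not uniformly the lowest. Relative to nlp2-3 shoots, EDS5 was higher in the double mutant (0.62 ± 0.17, edgeR adjusted p = 0.0126) and PBS3 lower, where 13.6% and 12.9% of all genes were (26.6% in either direction). The 2 called of 9 are thus near the share of all genes. The call of EDS5 ended without double mutant replicate 2 (0.0601) or nlp2-3 replicate 2 (0.0513). Relative to nlp7-1 shoots, 4 of 9 were lower, against 4.23% of all genes (7.99% in either direction), namely PBS3, EDS1, ICS1 (-0.43 ± 0.12, edgeR adjusted p = 0.0311) and SARD1 (-1.06 ± 0.23, 0.0103). ICS1 lost this call without any 1 of the double mutant replicates or without nlp7-1 replicate 1 or 2 (0.0711 to 0.152), and SARD1 without double mutant replicate 2 (0.0564). The interaction was called for PAD4 alone of the 9 by edgeR, against 2.12% of all genes called above 0 (3.76% in either direction), while all 9 estimates were positive, from 0.07 for PBS3 to 0.98 ± 0.33 for SARD1 (edgeR adjusted p = 0.13). DESeq2 called 4 (EDS5, EDS1, PAD4 and SARD1).

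**Figure D2:**
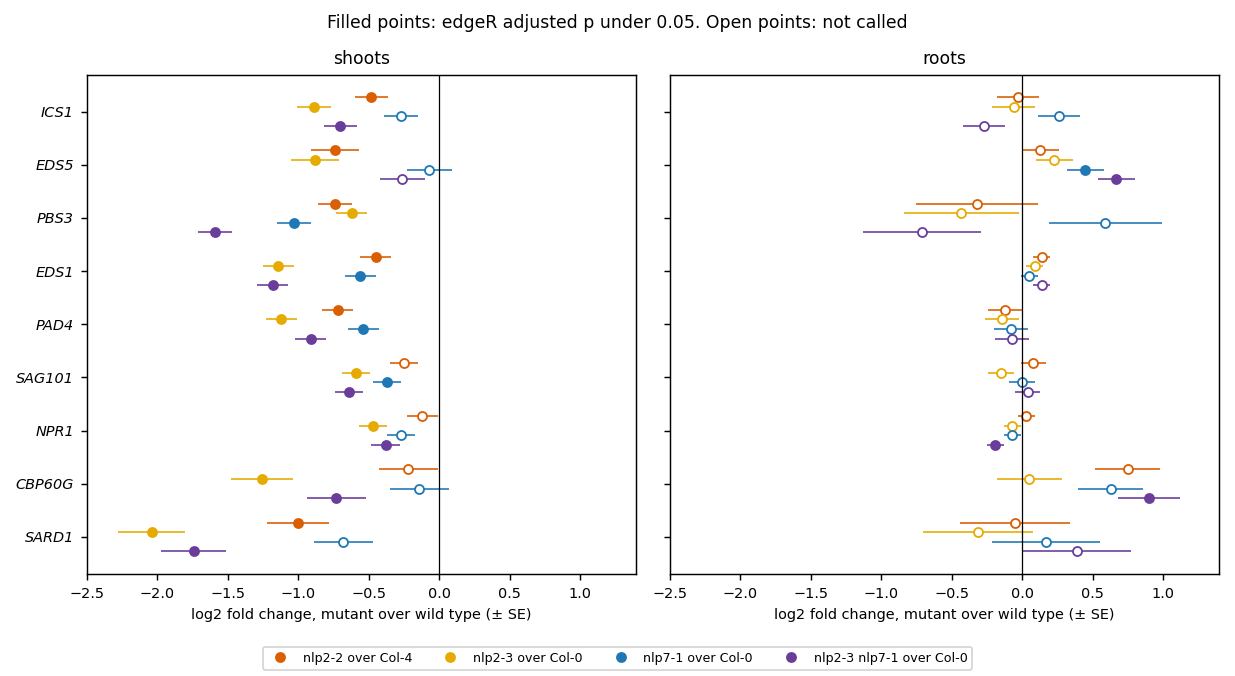
Log2 fold change of mutant over wild type for each gene in shoots (left) and roots (right), with bars of 1 SE; both panels share the scale, filled points were called and open points were not. All 36 shoot values lie below 0, while the root values lie on both sides of it, from -0.71 for PBS3 to 0.90 for CBP60G in the double mutant.

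In roots 0 to 3 of the 9 genes were called per mutant by edgeR. In nlp7-1 and in the double mutant, where EDS5 and CBP60G were higher, the counts were near the shares of all genes. EdgeR called 0 of the 9 in nlp2-2 roots (7.12% of all genes), with 2 at an unadjusted p under 0.05, and DESeq2 and limma called 1 each. In nlp2-3 roots edgeR called 0 (6.84% of all genes), 0 had an unadjusted p under 0.05, and DESeq2 and limma called 0. In nlp7-1 roots 1 was called, higher, where 4.5% of all genes were (7.94% in either direction), and in double mutant roots 3, of which 2 were higher and 1 lower, where 12.9% and 12.2% of all genes were (25.2% in either direction). The median log2 fold change of the 9 was 0.03, -0.07, 0.17 and 0.04 in nlp2-2, nlp2-3, nlp7-1 and double mutant roots.

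**Figure D3:**
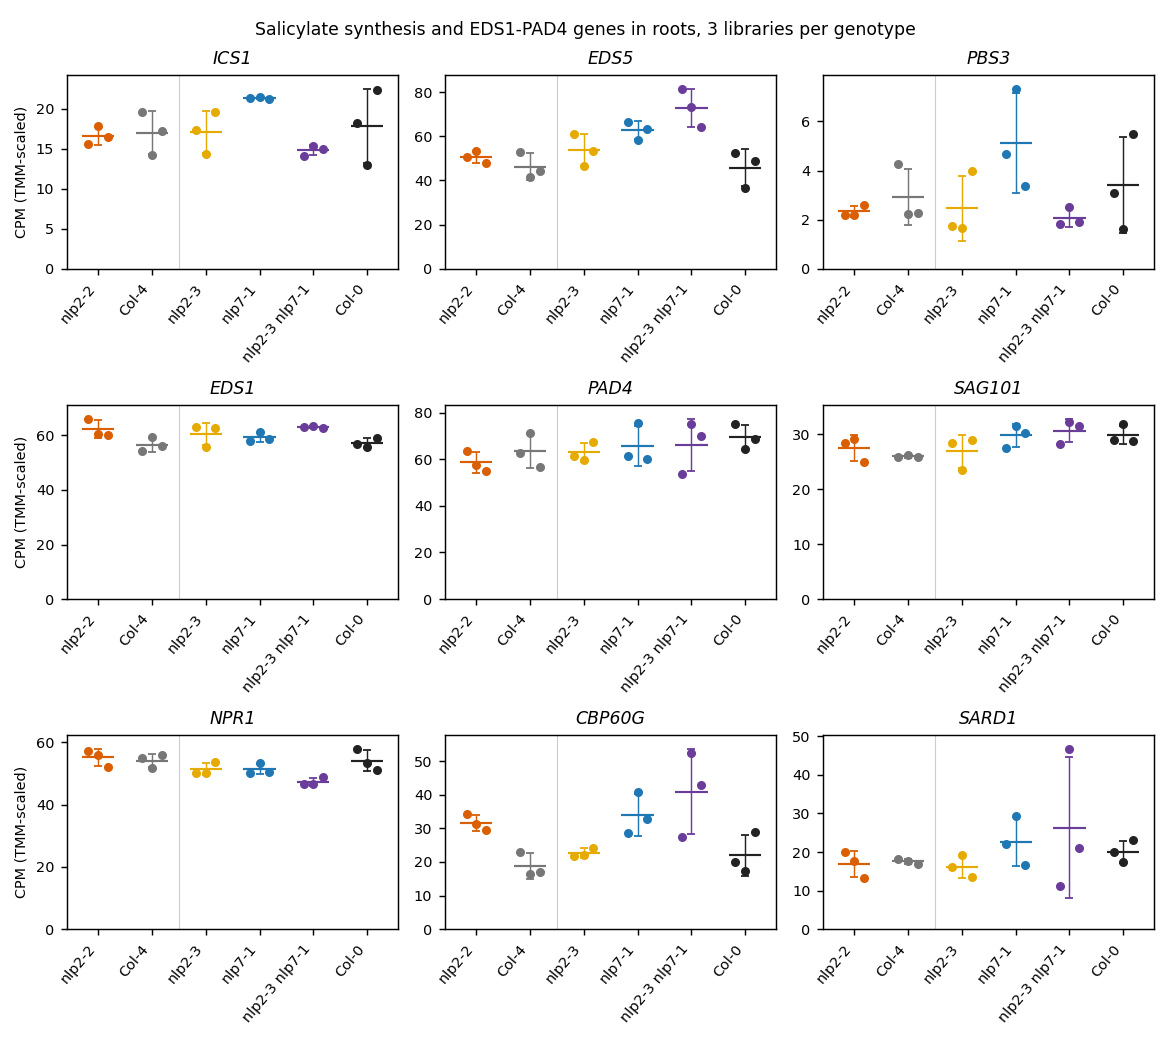
CPM of the 9 genes in roots, drawn as for shoots with 1 point per library, the mean and the SD of 3 libraries, each panel with its own axis from 0. EDS5 is at 64.2 to 81.2 CPM in the double mutant and 36.5 to 52.2 in Col-0, and 1 SARD1 library of the double mutant reaches 46.6 CPM while the others are at 11.3 and 21.1.

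EDS5 had 50.6, 53.1 and 47.9 CPM in nlp2-2 roots, against 53.0, 41.5 and 44.3 in Col-4. It had 61.1, 46.7 and 53.5 CPM in nlp2-3, 66.5, 58.3 and 63.4 in nlp7-1 and 81.2, 73.3 and 64.2 in the double mutant, against 52.2, 36.5 and 48.7 in Col-0. Both genotypes with nlp7-1 lay above Col-0 in every library, and both NLP2 single mutants overlapped their wild type. EDS5 rose by 0.45 ± 0.13 in nlp7-1 roots (edgeR adjusted p = 0.0355) and by 0.67 ± 0.13 in double mutant roots (0.000758), and was also higher in the double mutant than in nlp2-3 (0.44 ± 0.13, 0.0446). That last call ended without double mutant replicate 1 (0.184) or 2 (0.119), without nlp2-3 replicate 2 (0.169) or 3 (0.134), with RLE scaling (0.0521), with no filter (0.066) and with only the groups compared (0.0858). The nlp7-1 call ended without Col-0 replicate 2 or 3, without any 1 of the nlp7-1 replicates (edgeR adjusted p from 0.0531 to 0.157) or with only the groups compared (0.0565), and the double mutant call held in all 12 alternative settings. The overlapping gene AT4G39040 went the other way, at -0.68 ± 0.19 in nlp7-1 roots (edgeR adjusted p = 0.029) and -0.48 ± 0.18 in double mutant roots (0.063).

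CBP60G had 34.3, 31.2 and 29.5 CPM in nlp2-2 roots, against 23.1, 16.4 and 16.9 in Col-4, with no overlap. It had 21.7, 22.1 and 24.3 CPM in nlp2-3, 28.5, 40.8 and 32.9 in nlp7-1 and 27.5, 52.4 and 42.9 in the double mutant, against 19.9, 17.2 and 28.8 in Col-0. The mutants compared with Col-0 overlapped it. CBP60G rose by 0.90 ± 0.22 in double mutant roots (edgeR adjusted p = 0.00811), lost with only the groups compared (0.0712), and the double mutant exceeded nlp2-3 by 0.85 ± 0.22 (0.0322), which was lost without any 1 library of these groups other than double mutant replicate 1 (0.0765 to 0.143). It stood at 0.75 ± 0.23 in nlp2-2 (edgeR adjusted p = 0.0615), where DESeq2 (0.00513) and limma on FPKM (0.0382) called it, at 0.63 ± 0.23 in nlp7-1 (0.108) and at 0.05 ± 0.23 in nlp2-3 (0.94).

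NPR1 had 46.5, 46.5 and 48.9 CPM in double mutant roots, against 57.7, 53.5 and 51.0 in Col-0, and fell by -0.19 ± 0.06 (edgeR adjusted p = 0.0256). This small fall was not called without Col-0 replicate 1 (0.132) or double mutant replicate 1 (0.0729) or 2 (0.0813), by limma on FPKM (0.0756) or with only the groups compared (0.104). ICS1 had 14.1, 15.3 and 15 CPM in double mutant roots and 21.4, 21.5 and 21.2 in nlp7-1 roots, against 18.2, 13.0 and 22.3 in Col-0. The double mutant was lower than nlp7-1 by -0.53 ± 0.15 (edgeR adjusted p = 0.04), which ended without any 1 library of these groups (0.0843 to 0.114), and neither was called against Col-0. Of the members 2 were higher in double mutant than in nlp2-3 roots, where 2.82% of all genes were (6.47% in either direction), and 1 was lower in double mutant than in nlp7-1 roots, where 4.08% were (6.51% in either direction).

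The other members showed no change called by edgeR in mutant roots relative to wild type. NPR1 was the steadiest of the 9 over the 18 root libraries, from 18.0 to 21.9 FPKM, next to EDS1 with 23.3 to 28.7 FPKM. EDS1's log2 fold changes in roots were 0.14 ± 0.06, 0.09 ± 0.06, 0.05 ± 0.06 and 0.14 ± 0.06 in nlp2-2, nlp2-3 and nlp7-1 and in the double mutant (edgeR adjusted p from 0.0853 to 0.642), and limma on FPKM called it in the double mutant (0.18, adjusted p = 0.0264). PAD4 lay between -0.14 and -0.07 and SAG101 between -0.15 and 0.08. PBS3 was low in roots, with 3.35 to 7.32 CPM in nlp7-1 and 1.82 to 2.51 in the double mutant, against 1.62 to 5.49 in Col-0, and its fold changes were 0.59 ± 0.40 and -0.71 ± 0.42. Relative to nlp7-1 roots PBS3 was at -1.29 ± 0.41 in the double mutant (edgeR adjusted p = 0.0721). DESeq2 (0.0201) and edgeR with only the groups compared (0.0177) called that difference. SARD1 had 11.3, 46.6 and 21.1 CPM in double mutant roots, against 20.0, 17.3 and 23.0 in Col-0 (0.39 ± 0.38, edgeR adjusted p = 0.508). The root interaction was called for 0 of the 9 by edgeR (0.239% of all genes), with 1 at an unadjusted p under 0.05, and by DESeq2 and limma for 0.

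Whether a mutation acted differently in the 2 organs was tested directly, as the shoot effect minus the root effect in a fit of all 36 libraries (21554 genes). All 36 of these differences were negative. In nlp2-3 there were 7 called of 9, where 2.83% of all genes were called in this direction (4.23% in either), in the double mutant 6 (11.3%, or 23.2% in either), in nlp7-1 2 (3.38%, or 6.39% in either) and in nlp2-2 2 (1.37%, or 2.64% in either). EDS1 was called in each of the 4 mutants, at -0.60 ± 0.13 in nlp2-2 (edgeR adjusted p = 0.007), -1.25 ± 0.13 in nlp2-3 (1.03e-07), -0.62 ± 0.13 in nlp7-1 (0.00261) and -1.33 ± 0.13 in the double mutant (5.32e-09), and it kept the call in every alternative setting tried. EDS5 was called in nlp2-2 (-0.88 ± 0.23), nlp2-3 (-1.13 ± 0.23) and the double mutant (-0.92 ± 0.22), and SARD1 in nlp2-3 (-1.75 ± 0.48) and the double mutant (-2.14 ± 0.47). PBS3 was called in nlp7-1 (-1.63 ± 0.40, edgeR adjusted p = 0.0117), and NPR1, at -0.42 to -0.16, in none of the 4 by edgeR, though in nlp2-3 DESeq2 (-0.41, adjusted p = 0.0346) and edgeR with the replicate block (-0.42, 0.0116) called it. Single libraries moved these counts: nlp2-3 had 4 to 8 called when 1 library was left out, with 4 without Col-0 shoot replicate 3, where SAG101 (edgeR adjusted p = 0.0989), CBP60G (0.065) and SARD1 (0.111) lost their calls. Of 18 alternative settings in nlp2-3, SAG101 lost its call in 9 (up to 0.108) and SARD1 in 7 (up to 0.111). The SAG101 call ended with only the groups compared and without any 1 of 8 libraries, namely Col-0 root replicates 1 and 3, Col-0 shoot replicates 2 and 3, nlp2-3 root replicates 1 and 3 and nlp2-3 shoot replicates 2 and 3. The SARD1 call ended without nlp2-3 root replicate 1 or 2, nlp2-3 shoot replicate 1 or 2, Col-0 root replicate 1 or 2 or Col-0 shoot replicate 3. CBP60G lost its call without Col-0 root replicate 2 as well (0.058), and ICS1 without nlp2-3 root replicate 3 (0.0546) or with only the groups compared (0.0863). The nlp2-2 call of EDS5 ended without any 1 of 6 libraries (0.057 to 0.0913), and the nlp7-1 call of PBS3 without nlp7-1 root replicate 2 (0.0719) or with only the groups compared (0.0766).

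Across the 18 shoot libraries the levels of the 9 genes were positively correlated. Pearson's r of log2 CPM for the 36 pairs was between 0.29 and 0.95 with a median of 0.80, and 34 pairs were above 0.5. After subtraction of each group's mean the pairs spanned -0.09 to 0.82 with a median of 0.57, and those of SAG101 with ICS1 (-0.03), PBS3 (-0.03), EDS1 (0.08) and NPR1 (-0.09) were near 0. The closest pair was EDS1 with SARD1 (0.95), followed by PAD4 with SARD1 (0.94), and the loosest was EDS5 with PBS3 (0.29). In roots the 36 pairs spanned -0.61 to 0.87 with a median of 0.20 (0.24 after subtraction of group means), and 8 were above 0.5, with ICS1 and PBS3 the closest pair (0.87). These are descriptions over libraries that share genotypes, wild types and library scaling.

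Among 17177 genes of at least 1 CPM on average in shoots, the genes most like each member were named by r over the 18 libraries. For EDS1 the closest was the receptor-like kinase gene CRK5 (0.973), followed by AT5G66910 (0.972) and the receptor-like kinase gene SOBIR1 (0.967). For PAD4 the closest were LURP1 (0.975), AT2G25510 (0.975) and the urea transporter gene DUR3 (0.974), and for SARD1 SDR3 (0.974), AT5G42530 (0.972) and the receptor-like protein gene RLP23 (0.970). ICS1 was closest to AT3G47480 (0.970), EDS5 to FH4 (0.942), PBS3 to AT2G32160 (0.969), SAG101 to PR5 (0.955), NPR1 to AT5G16880 (0.928) and CBP60G to BCS1 (0.945). In roots, among 18934 genes, ICS1 was most like PBS3 (0.869), PBS3 most like ALD1 (0.900), SARD1 most like WRKY33 (0.896) and EDS5 most like MC7 (0.945).

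Beyond the 9 genes, 7 lists with 56 further genes of the pathway were read in the same fits, and all 56 were tested in shoots. In nlp2-2 shoots 1 was higher and 19 were lower, in nlp2-3 0 and 32, in nlp7-1 2 and 19, and in the double mutant 6 and 35, where 3.06%, 5.8%, 9.77% and 31.1% of all genes were called in either direction. Their median log2 fold change was -0.52, -0.80, -0.36 and -0.59 in that order of mutants, and that of all genes between -0.01 and 0.02. In roots, where 51 were tested, 3 were higher and 2 lower in nlp2-2, 1 and 2 in nlp2-3, 5 and 2 in nlp7-1 and 9 and 6 in the double mutant, where 7.12%, 6.84%, 7.94% and 25.2% of all genes were called in either direction. In double mutant roots the 15 of 51 is near the share of all genes. The root count in nlp2-2, 5 in all, was 2 without nlp2-2 replicate 1 and 3 without nlp2-2 replicate 2 or 3 or Col-4 replicate 2, and that in nlp7-1, 7 in all, was 4 without Col-0 replicate 2. The shoot count in nlp2-2 ranged from 14 to 19 when 1 library was left out, and that in nlp7-1 from 16 to 25.

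**Figure D4:**
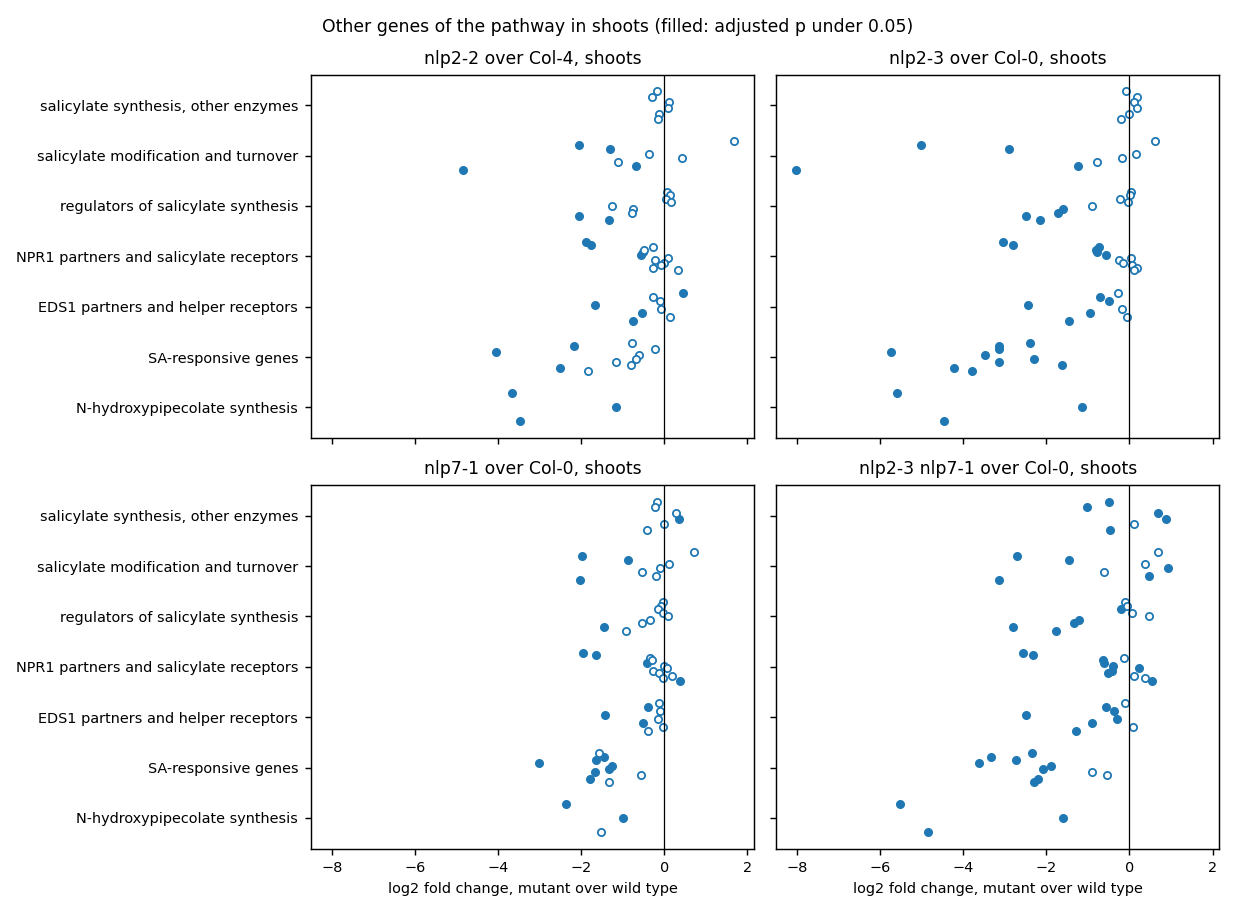
Log2 fold change of mutant over wild type in shoots for the 56 further pathway genes, by list and mutant; filled points were called, open points were not. Points reach furthest left for enzymes of salicylate turnover, salicylate-responsive genes and N-hydroxypipecolate synthesis, and stay near 0 for the other enzymes of salicylate synthesis in both NLP2 single mutants.

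Salicylate-responsive genes were the list with most calls in nlp2-3 shoots, 10 of 10 lower, with 3 of 10 in nlp2-2, 7 of 10 in nlp7-1 and 8 of 10 in the double mutant. Over all genes 2.33%, 4.47%, 4.93% and 15.6% were called lower in nlp2-2, nlp2-3, nlp7-1 and double mutant shoots. PR1, the classic marker of salicylate signalling, had 2.51, 5.28 and 1.62 CPM in nlp2-2 shoots, against 40.2, 62.8 and 51.7 in Col-4, and 0.719, 0.583 and 1.94 CPM in nlp2-3, against 44.3, 44.1 and 77.8 in Col-0. Its log2 fold changes were -4.05 ± 0.54, -5.73 ± 0.63, -3.01 ± 0.47 and -3.63 ± 0.50 in nlp2-2, nlp2-3 and nlp7-1 and in the double mutant, each called. PR2, a glucanase gene, fell by -3.47 ± 0.29, -1.26 ± 0.26 and -1.90 ± 0.27 in nlp2-3, nlp7-1 and the double mutant and was at -0.61 ± 0.26 in nlp2-2 (edgeR adjusted p = 0.317), and PR5 fell by -2.30 ± 0.19, -1.32 ± 0.18 and -2.07 ± 0.18 and was at -0.68 ± 0.18 in nlp2-2 (0.0643). In roots PR1 had 0 counts in all libraries but 1 and was not tested.

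Several enzymes that inactivate salicylate were lower too. UGT76B1, a glucosyltransferase, had 0.186, 0.269 and 0.209 CPM in nlp2-2 shoots, against 5.29, 6.51 and 7.51 in Col-4 (-4.84 ± 0.79, edgeR adjusted p = 0.00345). In nlp2-3 shoots it had 0, 0 and 0.0525 CPM, in nlp7-1 1.95, 1.55 and 0.269 and in the double mutant 0.170, 0.258 and 1.36, against 5.61, 2.54 and 7.93 in Col-0. Its call in nlp7-1 (-2.02 ± 0.57, edgeR adjusted p = 0.042) ended in 9 of 12 alternative settings (up to 0.172), among them those without Col-0 replicate 1 or 3 or any 1 of the nlp7-1 replicates. In roots the same gene was at 82.6 to 114 CPM in the double mutant, against 88.3 to 112 in Col-0. The salicylate hydroxylase genes DLO1 and DMR6 fell in all 4 comparisons, DLO1 by -2.04 ± 0.40, -5.01 ± 0.55, -1.99 ± 0.39 and -2.71 ± 0.42 and DMR6 by -1.30 ± 0.23, -2.90 ± 0.25, -0.87 ± 0.22 and -1.46 ± 0.23 in nlp2-2, nlp2-3 and nlp7-1 and in the double mutant. UGT74F2, a further salicylate glucosyltransferase, fell in nlp2-2 (-0.67 ± 0.16) and nlp2-3 (-1.25 ± 0.16) and rose in the double mutant (0.46 ± 0.15), a rise that ended without double mutant replicate 3 (edgeR adjusted p = 0.253) or without Col-0 replicate 2. In nlp2-2 the call of DLO1 ended without Col-4 replicate 3 or nlp2-2 replicate 1 or 3 and with only the groups compared (edgeR adjusted p up to 0.0831), and that of UGT74F2 without Col-4 replicate 1 or nlp2-2 replicate 1 or 3 (up to 0.0966). DMR6 lost its call in nlp7-1 without Col-0 replicate 3 or any 1 of the nlp7-1 replicates (up to 0.114) and, in nlp7-1 and nlp2-2 alike, with only the groups compared.

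N-hydroxypipecolate, the other mobile signal of systemic immunity, is made by ALD1 and FMO1. ALD1 fell by -3.66 ± 0.53, -5.59 ± 0.66, -2.37 ± 0.45 and -5.52 ± 0.64 in nlp2-2, nlp2-3, nlp7-1 and double mutant shoots. FMO1 fell by -3.48 ± 0.61, -4.46 ± 0.72 and -4.85 ± 0.75 in nlp2-2, nlp2-3 and the double mutant and was at -1.51 ± 0.50 in nlp7-1 (edgeR adjusted p = 0.0582). In roots FMO1 rose in nlp7-1 (0.98 ± 0.24, edgeR adjusted p = 0.0233), lost without Col-0 replicate 1 or 2 or nlp7-1 replicate 2 and with only the groups compared.

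Regulators of salicylate synthesis other than CBP60G and SARD1 gave 2, 4, 1 and 5 lower of 9 in nlp2-2, nlp2-3, nlp7-1 and double mutant shoots. Of all genes 2.33%, 4.47%, 4.93% and 15.6% were called lower there (3.06%, 5.8%, 9.77% and 31.1% in either direction). The 1 of 9 in nlp7-1 is thus near the background. WRKY70 had 39.8, 56.0 and 49.8 CPM in nlp2-2, against 106, 130 and 133 in Col-4, and 16.1, 23.9 and 37.6 in nlp2-3, 52.9, 54.8 and 74.8 in nlp7-1 and 27.4, 28.8 and 45.2 in the double mutant, against 109, 96.8 and 139 in Col-0. No group overlapped its wild type. The gene fell by -1.34 ± 0.28, -2.16 ± 0.29 and -1.76 ± 0.29 in nlp2-2, nlp2-3 and the double mutant, and stood at -0.92 ± 0.27 in nlp7-1 (edgeR adjusted p = 0.0563), the nlp2-2 call ending without nlp2-2 replicate 1 or 3 or Col-4 replicate 2 or 3 (up to 0.105) and the nlp2-3 call with only the groups compared (0.0557). WRKY54 fell by -2.05 ± 0.30, -2.5 ± 0.31, -1.46 ± 0.28 and -2.81 ± 0.32. Both are transcription factors known as negative regulators of salicylate synthesis.

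Among partners of NPR1, its inhibitors NIMIN1 and NIMIN2 and the salicylate receptor NPR4 fell in all 4 shoot comparisons, NIMIN1 by -1.89 ± 0.44, -3.05 ± 0.51, -1.96 ± 0.44 and -2.55 ± 0.48 and NPR4 by -0.52 ± 0.08, -0.77 ± 0.08, -0.41 ± 0.08 and -0.61 ± 0.08. The nlp2-2 call of NIMIN1 was lost with nlp2-2 replicate 1 or 3 or Col-4 replicate 2 or 3 left out (edgeR adjusted p up to 0.118). TGA1, a transcription factor that binds TGACG, fell in shoots of nlp2-2 (-0.57 ± 0.11), nlp2-3 (-0.57 ± 0.11) and the double mutant (-0.39 ± 0.11). It fell in roots of nlp2-3 (-0.25 ± 0.07), nlp7-1 (-0.52 ± 0.07) and the double mutant (-1.02 ± 0.07) as well, the nlp2-3 root call ending in 7 of 12 settings (edgeR adjusted p up to 0.261), among them those without Col-0 replicate 1 or 3 or nlp2-3 replicate 2 or 3. TGA3 went the other way, as the 1 of 12 called higher in nlp7-1 and in double mutant roots, with TGA1 the 1 called lower. Over all genes 7.94% and 25.2% were called there in either direction. The TGA3 call ended in 6 of 12 settings in nlp7-1 (edgeR adjusted p up to 0.185) and in 0 of 12 in the double mutant. In nlp2-2 and in nlp2-3 roots 1 of 12 was called, lower, against 7.12% and 6.84% of all genes. Calls in this list in shoots numbered 4 lower of 12 in nlp2-2, 6 in nlp2-3, 3 lower and 1 higher in nlp7-1, and 7 lower and 2 higher in the double mutant. In the same order 3.06%, 5.8%, 9.77% and 31.1% of all genes were called in either direction.

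EDS1 lies in tandem with AT3G48080, a copy on the same strand 138 bases away whose coding sequence is 82.0% identical. The longest identical run was 44 bases, and 0 of 1773 windows of 100 bases were shared. AT3G48080 had 1.95, 3.28 and 3.40 CPM in nlp2-2 shoots, against 8.35, 8.95 and 9.88 in Col-4, and 1.52, 1.93 and 2.52 in nlp2-3, 4.26, 3.90 and 3.59 in nlp7-1 and 1.62, 1.94 and 2.1 in the double mutant, against 9.28, 8.70 and 14.0 in Col-0. It fell by -1.66 ± 0.21, -2.43 ± 0.21, -1.43 ± 0.19 and -2.48 ± 0.21 in these mutants. In roots it had 32.6, 29.7 and 29.1 CPM in the double mutant, against 40.5, 36.6 and 37.6 in Col-0 (-0.33 ± 0.09, edgeR adjusted p = 0.0136), a fall that ended without Col-0 replicate 1 or double mutant replicate 2 or 3 (up to 0.0571). Of the 8 genes listed as EDS1 partners and helper receptors 3 were lower and 1, ADR1, was higher in nlp2-2 shoots (0.45 ± 0.11, no longer called by limma, against Col-0, or with nlp2-2 replicate 2 or 3 or Col-4 replicate 1 or 2 left out), and 5, 3 and 6 were lower in nlp2-3, nlp7-1 and the double mutant. The shares of all genes called in either direction were 3.06%, 5.8%, 9.77% and 31.1% in nlp2-2, nlp2-3, nlp7-1 and double mutant shoots. In nlp2-2 roots ADR1 and ADR1-L2 were the 2 of these 8 called, both higher, and both calls held in all 13 alternative settings. In nlp2-3 and nlp7-1 roots 0 of the 8 were called, and in double mutant roots 1 was higher and 1 lower. Of all genes 7.12%, 6.84%, 7.94% and 25.2% were called in these roots in either direction.

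Other enzymes of salicylate synthesis gave 0 called in shoots of nlp2-2 and of nlp2-3 by edgeR, 1 of 6 in nlp7-1, higher, and 2 higher and 3 lower of 6 in the double mutant, where 31.1% of all genes were called. In nlp2-2, nlp2-3 and nlp7-1 shoots 3.06%, 5.8% and 9.77% of all genes were called in either direction. PAL2, a phenylalanine ammonia-lyase gene, rose in nlp7-1 (0.36 ± 0.09) and the double mutant (0.88 ± 0.09) and PAL1 in the double mutant (0.68 ± 0.12), while EPS1 (-0.50 ± 0.15), PAL4 (-0.46 ± 0.16) and ICS2 fell there. The PAL2 call in nlp7-1 was lost with nlp7-1 replicate 1 or 3 or Col-0 replicate 1 or 3 left out (edgeR adjusted p up to 0.0961), that of EPS1 with double mutant replicate 1 or Col-0 replicate 3 left out (up to 0.117), and that of PAL4 by limma or with double mutant replicate 1 or 2 or Col-0 replicate 1 or 3 left out (up to 0.123). ICS2, the second isochorismate synthase gene, had 5.03, 6.67 and 4.12 CPM in double mutant shoots, against 8.40, 12.4 and 11.1 in Col-0, and fell by -1.01 ± 0.16 (edgeR adjusted p = 3.39e-05). In double mutant roots it had 11.8, 13.1 and 5.15 CPM, against 6.50, 5.40 and 3.19 in Col-0, and rose by 1.00 ± 0.27 (edgeR adjusted p = 0.0129), lost without Col-0 replicate 3 or double mutant replicate 1 or 2 and with only the groups compared. In the single mutants it was between -0.29 and 0.18 in shoots and between 0.54 and 0.74 in roots, with no call. PAL1, which starts the phenylpropanoid route, rose in roots of all 4 mutants, by 0.32 ± 0.07, 0.33 ± 0.07, 0.47 ± 0.07 and 0.63 ± 0.07 in nlp2-2, nlp2-3 and nlp7-1 and in the double mutant, and PAL3 fell by -0.62 ± 0.16, -0.78 ± 0.16, -0.71 ± 0.16 and -1.84 ± 0.17. The nlp2-2 call of PAL3 ended without Col-4 replicate 2 or 3 or any 1 of the nlp2-2 replicates (edgeR adjusted p up to 0.137), that of PAL1 without nlp2-2 replicate 1 and its nlp2-3 call with only the groups compared. Among defence genes that respond to salicylate, GRX480 rose in roots of nlp7-1 (1.85 ± 0.43, edgeR adjusted p = 0.0122), lost without Col-0 replicate 2 or 3, and of the double mutant (2.90 ± 0.42, 6.29e-05). Of the 6 genes of that list tested in roots, 1 was called higher and 0 lower in nlp7-1, and 1 higher and 1 lower in the double mutant. In each mutant 3 of the 6 had a fold change below 0. Over all genes 7.94% and 25.2% were called in either direction in these roots.

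Beside the shoot results stand the tissue markers. The 9 leaf markers in shoots had a median log2 fold change of -0.01, 0.02, 0.00 and -0.10 in nlp2-2, nlp2-3 and nlp7-1 and in the double mutant, with 0, 0, 0 and 4 of 9 called, all lower. In the same order 2.33%, 4.47%, 4.93% and 15.6% of all genes were called lower. Their summed level was 58034 to 60594 CPM in double mutant shoots, against 60193 to 65823 in Col-0. Summed root markers were at most 1.00 CPM in any shoot library. Root markers summed to 233 to 316 CPM in nlp2-2 roots, against 164 to 252 CPM in Col-4 roots, and to 221 to 338 CPM in nlp2-3 roots, 285 to 316 CPM in nlp7-1 roots and 213 to 324 CPM in double mutant roots, against 160 to 241 CPM in Col-0 roots, with a median log2 fold change of 0.54, 0.41, 0.52 and 0.45 in nlp2-2, nlp2-3 and nlp7-1 and in the double mutant. By edgeR 1 of 6 was called higher in nlp2-2, 2 in the double mutant and 0 in nlp2-3 and nlp7-1. Of all genes 7.12%, 25.2%, 6.84% and 7.94% were called in either direction in these roots, in that order. The part of these markers in the results of the 9 genes was not tested.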

How the data were processed

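The deposited tables hold counts per gene and FPKM made by the authors, in which FPKM equalled the count divided by gene length and by the library's total for the 11125 genes checked. Reads were aligned with HISAT2 and counted with HTSeq on TAIR10, per the submitters' processing notes; versions, strand setting and filters are not given in the sources used here. All comparisons used the counts as deposited. Low genes were removed by filterByExpr (count 10, total 15), libraries scaled by TMM and fitted in R 4.3.3 with edgeR 4.0.16 (robust quasi-likelihood test), in 1 fit of 18 libraries per tissue (12 residual degrees of freedom) and, for differences between tissues, 1 fit of all 36 (24 degrees of freedom). SE is the log2 fold change over the root of F. Benjamini-Hochberg adjustment covered all genes of a fit. The fits were tested on simulated data.

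The 9 genes and the lists were chosen with earlier results of these data known. The text gives all 9 members where mutant shoots are compared with wild type, and elsewhere those called and only some of those not called. It also names up to 6 called genes per list and comparison by size of change, PR1, PR2, PR5, AT3G48080, ICS2 and WRKY70 in any case, and up to 3 most alike genes per member and tissue. Alternatives were DESeq2 1.42.0, limma 3.58.1 on log2(FPKM + 1), RLE scaling, no filter, only the groups compared, Col-0 as the wild type of nlp2-2, each library left out, and the replicate number as a block. Replicate numbers were checked by the correlation of same-numbered libraries' deviations from their group means. It was above 0.1 for all 3 numbers in nlp2-2 and Col-4 roots (0.11, 0.15 and 0.18) and in nlp2-3 and Col-0 roots (0.28, 0.38 and 0.23), and in no other pair of groups compared. No pair of libraries held identical counts. Promoters were read from RefSeq's TAIR10.1 annotation, and no coordinates of the authors' files were used.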

Additional observations from a re-analysis of the deposited data

Results flagged for a closer look

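The direct tests of the shoot effect minus the root effect gave 17 called differences among the 9 genes, all below 0 (edgeR, log2 scale). In nlp2-2 they were -0.88 for EDS5 and -0.60 for EDS1. In nlp2-3 they were -0.86 for ICS1, -1.13 for EDS5, -1.25 for EDS1, -0.99 for PAD4, -0.47 for SAG101, -1.33 for CBP60G and -1.75 for SARD1. In nlp7-1 they were -1.63 for PBS3 and -0.62 for EDS1. In the double mutant they were -0.92 for EDS5, -1.33 for EDS1, -0.84 for PAD4, -0.68 for SAG101, -1.63 for CBP60G and -2.14 for SARD1. The effects of nlp2-3, nlp7-1 and the double mutant share the Col-0 libraries, so that they are not separate evidence.

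The interaction of nlp2-3 and nlp7-1 in shoots was called for PAD4, at 0.76, which means that its level in the double mutant was above that given by adding the log2 effects of its 2 single mutants.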

How the results depend on the processing

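Over 189 member values, 2452 of 2619 alternative values kept their side of the threshold. Changes of sign between values that were both not called are counted among these. A further 107 kept the direction and lost the call, 57 kept it and gained one, and 3 reversed with a call in at least 1 of the fits. The reversed values were those of EDS1 (-0.41), NPR1 (-0.62) and SARD1 (-0.01) between Col-0 shoots and roots by limma on FPKM, where the median of all genes was also lower. Of the further pathway genes, PAL2 in nlp2-2 shoots reversed to -0.34 with Col-0 as the wild type.

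Members called in nlp2-2 roots numbered 1 in place of 0 by DESeq2, limma and with only the groups compared. With only the groups compared the count was 0 in nlp7-1 roots, 1 in double mutant roots, 0 for the double mutant over nlp2-3 and 2 for the double mutant over nlp7-1 in roots, and 1 for the tissue difference in nlp7-1. DESeq2 gave 2 in nlp7-1 roots, 2 for the double mutant over nlp7-1 in roots, 4 for the shoot interaction and 4 for the tissue difference in nlp2-2. For the double mutant over nlp2-3 roots RLE scaling gave 1 and no filter 0, and limma gave 0 for the double mutant over nlp7-1 roots. The cause of these shifts was not tested.

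Leaving out 1 library gave member counts of 2 to 5 in nlp2-2 shoots, 1 to 2 for the double mutant over nlp2-3 and 2 to 4 over nlp7-1 in shoots, 1 to 2 for the shoot interaction, 0 to 1 in nlp2-2 and in nlp7-1 roots, 0 to 2 for the double mutant over nlp2-3 roots and 0 over nlp7-1 roots. Tissue differences had 1 to 3 in nlp2-2, 4 to 8 in nlp2-3 and 1 to 3 in nlp7-1.

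With the replicate block member calls stayed at 0 in nlp2-2 and nlp2-3 roots. There the deviations of same-numbered libraries correlated above 0.1 for all 3 numbers. Elsewhere not all 3 numbers passed that limit, with 0.08 to 0.16 in nlp2-2, nlp2-3 and nlp7-1 shoots against their wild types. In these shoots, and in Col-4 against Col-0 shoots, each of the 3 numbers nevertheless correlated best with its own number. Whether same-numbered libraries belong together there was not tested further, and the main fit has no block. The block gave 3 member calls for the shoot interaction, 6 in nlp7-1 shoots and 6 for the double mutant over nlp7-1 shoots.

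Counts over all genes moved by more than 1.5 times for the double mutant over nlp2-3 roots (1326, or 694 with only the groups compared), nlp2-3 roots (1401, or 659), the shoot interaction (719, or 1233 with the block), Col-4 over Col-0 shoots (152, or 332 by DESeq2 and 622 with the block), nlp2-2 shoots (586, or 1360 with Col-0 as the wild type), the root interaction (49, or 149 by DESeq2 and 77 with the block), Col-4 over Col-0 roots (8, or 20 and 18), and the tissue difference in nlp2-2 (569, or 899 by DESeq2, 1046 by limma and 896 with Col-0 as the wild type). Leaving out 1 library moved counts over all genes as far in nlp2-2 roots (1458, down to 846), nlp2-3 roots (1401, 855), nlp7-1 roots (1627, 1010), nlp2-2 shoots (586, 338) and nlp7-1 shoots (1870, 955, the last without Col-0 replicate 3), for the double mutant over nlp2-3 roots (1326, 870), over nlp7-1 roots (1334, 824) and over nlp7-1 shoots (1530, 921), for the root interaction (49, 23), Col-4 over Col-0 shoots (152, 50) and roots (8, up to 18), and for the tissue difference in nlp7-1 (1378, 802). The shares of all genes beside the member counts move with them. With 3 libraries a group, PBS3 at 0.742 to 3.35 FPKM in roots had the largest SE of the 9 genes, so differences of its size seen in shoots could be missed there.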
